A study of Mus musculus with 8 samples.

Results

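The 10 genes described here mark iNKT17 cells, the subset of invariant natural killer T (iNKT) cells that makes interleukin 17. They are Il17a, Il23r, Il1r1, Il17re, Blk, Serpinb1a, Tmem176a, Tmem176b, Aqp3 and 5830411N06Rik. They were chosen by name as type 17 T cell genes, leaving out transcription factors and Ccr6, and all 10 were found among the 22549 genes of the table. RNA was sequenced from iNKT cells of skin (4 libraries) and of spleen (4 libraries). All mice had the genotype CCR10+/EGFP, in which EGFP, a green fluorescent reporter, stands at 1 allele of the chemokine receptor gene Ccr10. Age, sex, the sort that gave the iNKT cells and the number of animals behind a library were not given in the sources used here, so p-values measure the spread between libraries, which may be technical.

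Mouse iNKT cells leave the thymus as subsets that resemble T helper cells. The iNKT17 subset is kept in readiness by interleukin 23 and interleukin 1. It is rare in mouse spleen and more common in skin, lung and peripheral lymph nodes. In bulk RNA, fewer cells of a subset and less RNA per cell cannot be told apart.

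Promoters of 8 of the 10 genes were matched by symbol in RefSeq (GRCm38.p6), as windows of 300 bases from 250 before to 50 after a transcript start. The half-site AGGTCA, a core that many nuclear receptors can bind, was searched on both strands. It was in a window of 3 of these 8 genes, 5830411N06Rik, Il17a and Il23r, and in a window of 18.1% of the 27025 genes with promoters in RefSeq (16.3% of 32851 windows). A match describes letters, not binding. The 3 windows are shown because they belong to the most abundant gene of the set and to its cytokine and cytokine receptor, with each half-site in capitals, 5′ to 3′ on the gene's strand (TGACCT is the same half-site on the other strand).
5830411N06Rik (chr7:140247051-140247350, plus strand): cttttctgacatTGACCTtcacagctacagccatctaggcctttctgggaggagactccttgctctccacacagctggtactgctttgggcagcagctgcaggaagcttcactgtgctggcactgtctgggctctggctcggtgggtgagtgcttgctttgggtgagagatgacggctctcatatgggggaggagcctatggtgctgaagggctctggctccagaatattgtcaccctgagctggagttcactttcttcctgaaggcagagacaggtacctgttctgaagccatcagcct
Il17a (chr1:20730655-20730954, plus strand): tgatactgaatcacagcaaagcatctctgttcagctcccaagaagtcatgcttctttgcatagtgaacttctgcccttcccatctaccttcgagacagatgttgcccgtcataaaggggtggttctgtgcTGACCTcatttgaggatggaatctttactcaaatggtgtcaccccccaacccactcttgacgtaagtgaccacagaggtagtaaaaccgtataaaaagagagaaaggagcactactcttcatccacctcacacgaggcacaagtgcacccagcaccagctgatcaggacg
Il23r (chr6:67491806-67492105, minus strand): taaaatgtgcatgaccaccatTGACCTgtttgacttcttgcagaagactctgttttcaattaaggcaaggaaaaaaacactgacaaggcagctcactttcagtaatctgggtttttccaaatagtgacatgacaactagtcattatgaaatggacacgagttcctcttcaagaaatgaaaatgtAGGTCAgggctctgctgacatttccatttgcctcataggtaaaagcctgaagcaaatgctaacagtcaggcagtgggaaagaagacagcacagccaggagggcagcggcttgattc

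Tmem176a and Tmem176b are read in opposite directions from a common stretch of chromosome 6, which is shown because both genes were found together in spleen. The pair of their windows with the largest overlap shares 219 bases, written in capitals within the window of Tmem176a. Other pairs share 0 to 208 bases, and no window of either gene held AGGTCA.
Tmem176a (chr6:48841406-48841705, plus strand): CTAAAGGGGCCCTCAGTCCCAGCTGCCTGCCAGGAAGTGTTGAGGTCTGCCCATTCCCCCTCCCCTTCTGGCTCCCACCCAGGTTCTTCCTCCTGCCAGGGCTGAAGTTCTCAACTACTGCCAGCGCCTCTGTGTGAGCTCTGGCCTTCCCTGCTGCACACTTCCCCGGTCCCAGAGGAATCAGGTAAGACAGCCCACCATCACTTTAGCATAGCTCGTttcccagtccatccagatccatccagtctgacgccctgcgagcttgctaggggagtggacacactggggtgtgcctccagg

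Between 1 and 7 of the 10 iNKT17 genes were found in a library, and which ones were found differed from library to library within each tissue. The steadiest was 5830411N06Rik, found in all 4 skin libraries and in 3 of 4 spleen libraries, with every skin value above every spleen value. Il17a itself had no count in skin. None of the 10 genes passed the test of skin against spleen, in either direction. In the fit of all genes, 5.43% of the 6920 genes tested were called, 1.85% higher in skin and 3.58% lower (edgeR's quasi-likelihood test, Benjamini-Hochberg adjusted p under 0.05). Only 4 of the 10 genes passed the count filter of this fit, Blk, Serpinb1a, Tmem176a and 5830411N06Rik. Of these, 1, 5830411N06Rik, had an unadjusted edgeR p under 0.05. In edgeR without the filter, Tmem176b and Aqp3, both lower in skin, had unadjusted p of 0.015 and 0.0355. That of 5830411N06Rik, higher in skin, was 0.0357 there, and none of the 10 was called. DESeq2 and limma-voom called none of the 4 either. Of the 4, 2 had a fitted log2 fold change (skin over spleen) above 0 and 2 below, with a median of 0.41, against a median of -0.29 over all genes tested.

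Libraries held 7221498 to 9791973 expected counts in skin and 7191131 to 9361237 in spleen. A count above 0 was found for 5302 to 6012 genes in a skin library and for 6415 to 10094 in a spleen library. CPM stands for counts per 1000000 counts after TMM scaling of the library sizes, and 3 counts, taken as the detection floor, equal 0.33 to 0.454 CPM in skin libraries and 0.292 to 0.446 CPM in spleen libraries. Of the 9 pan-T cell and iNKT markers measured, 8 or 9 were found in every library, with sums of 3877 to 4583 CPM in skin and 4375 to 6688 CPM in spleen. Markers of other cells were also found. Keratinocyte markers (7 of 10 found) summed to 181 to 953 CPM in skin and 0 to 29.5 CPM in spleen, with Dsp, Dsg3 and Trp63 at 0 throughout. Fibroblast markers (3 of 8 found) summed to 0 to 168 CPM in skin and 0 in spleen, with Col1a2, Col3a1 and Pdgfra at 0 throughout. B cell markers (5 of 6 found) were at 0 in all skin libraries and summed to 31.5 to 166 CPM in spleen, with Pax5 at 0. Macrophage and dendritic cell markers (7 of 10 found) summed to 68.9 to 401 CPM in skin and 62.3 to 429 CPM in spleen, with Csf1r, Cd207 and Mrc1 at 0. The gamma delta T cell receptor genes were not analysed here.

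**Figure D1:**
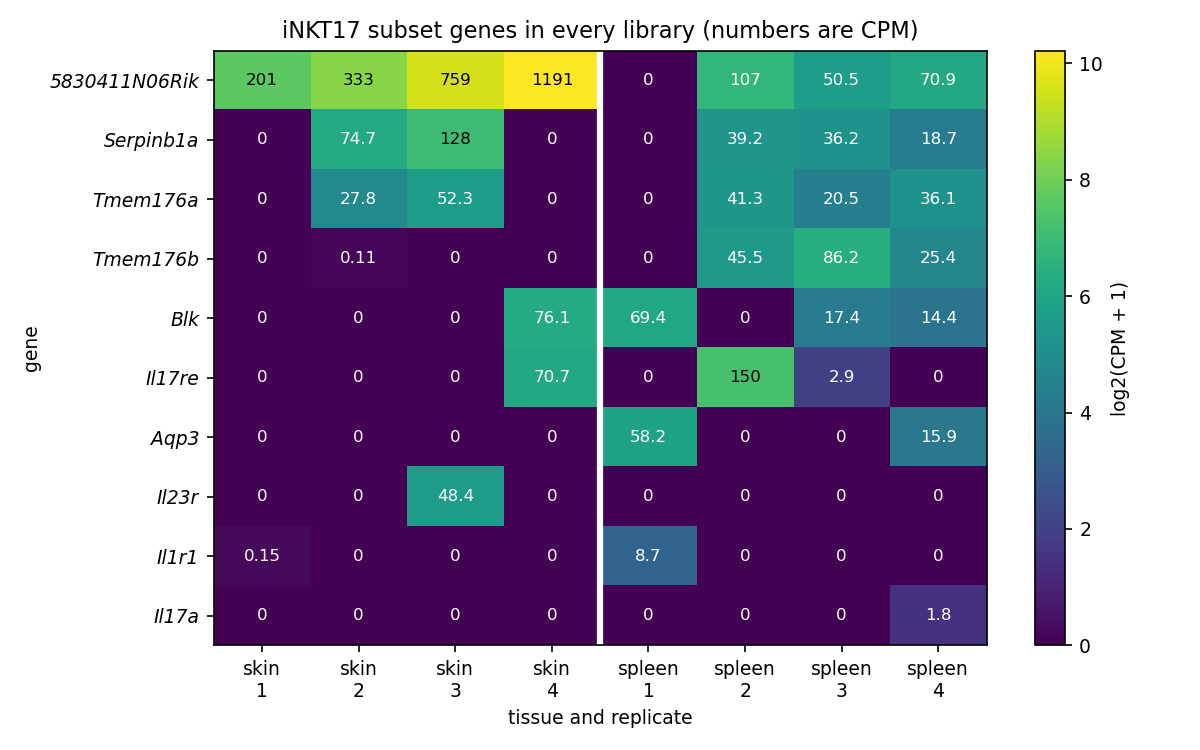
Level of each of the 10 genes in each library, skin on the left and spleen on the right; the number is CPM and the colour log2(CPM + 1). 5830411N06Rik is present in all libraries but spleen replicate 1, and Il17a, Il23r and Il1r1 are each at 0 in 6 or more of the 8.

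The number of the 10 genes with at least 3 counts was 1, 3, 4 and 3 in skin replicates 1 to 4 and 3, 5, 6 and 7 in spleen replicates 1 to 4. Counting any value above 0, 32.5% of the set's 40 skin values and 52.5% of its 40 spleen values were above 0. The same shares over all genes with a count in any library were 49.4% in skin and 70.2% in spleen. Detection was thus lower in skin for genes in general as well, and whether the set differed beyond that was not tested. Summed over the 10 genes, the level was 201, 436, 988 and 1337 CPM in skin replicates 1 to 4, against 136, 383, 214 and 183 CPM in spleen replicates 1 to 4. Without 5830411N06Rik the sums were 0.151, 103, 229 and 147 CPM in skin, against 136, 276, 163 and 112 CPM in spleen. The skin and spleen sums overlapped in both cases, and most of the skin sum came from 1 gene.

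The share of values at 0 at a given level sets how far the empty cells of this set can be read. Where the other 3 libraries of a tissue averaged 40 to 80 CPM, 37.9% of skin values and 16.6% of spleen values were at 0, over all genes. At 20 to 40 CPM the shares were 52.1% in skin and 28.4% in spleen. At 320 to 640 CPM they were 0.847% and 0.278%. Apart from 5830411N06Rik, no value of the set exceeded 149.97 CPM, so a 0 in a library was common for genes at these levels in both tissues.

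**Figure D2:**
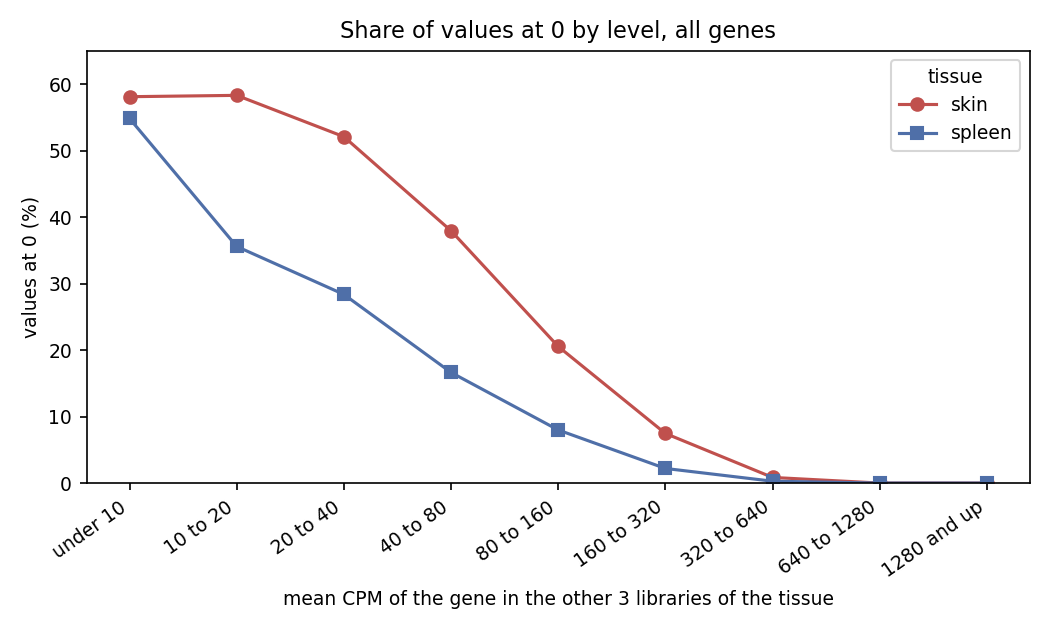
Share of values at 0 (vertical axis, percent) by the gene's mean CPM in the other 3 libraries of the same tissue (horizontal axis), over all genes, for skin and spleen. At 40 to 80 CPM the share is 37.9% in skin and 16.6% in spleen, and both curves are near 0 from 320 CPM. Values whose other 3 libraries were all at 0 are left out.

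5830411N06Rik encodes SCART2, a scavenger receptor cysteine-rich surface protein known from mouse gamma delta T cells that make interleukin 17. It stood at 201, 333, 759 and 1191 CPM in skin replicates 1 to 4, against 0, 107, 50.5 and 70.9 CPM in spleen replicates 1 to 4. All 4 skin libraries lay above all 4 spleen libraries. Over all genes tested, 6.11% lay without overlap higher in skin and 13.4% lower. The means were 621 ± 448 CPM across skin libraries and 57.0 ± 44.6 CPM across spleen libraries (SD, n = 4 each), a ratio of 10.9. The fitted log2 fold change was 3.44 ± 1.46 (SE), with a 95% interval of 0.13 to 6.76, and placed the gene above 97.5% of the genes tested. It did not pass the test over all genes (edgeR adjusted p = 0.363), and it was called in none of the 17 alternative fits. Its adjusted p ranged from 0.0586 with DESeq2 to 0.626 with edgeR without spleen replicate 3. Without spleen replicate 1, the library at 0, the edgeR adjusted p was 0.0877 and the log2 fold change 3.03. Without spleen replicate 4, the library with the most genes found, they were 0.533 and 3.56. The other 3 spleen libraries averaged 76.0 CPM, a level at which 16.6% of spleen values were at 0.

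Cd163l1, named SCART1 in mouse and also on chromosome 7, is the closest relative of 5830411N06Rik among the genes listed for comparison. It stood at 159, 30.4, 103 and 286 CPM in skin replicates 1 to 4, against 0, 49.99, 39.9 and 42.8 CPM in spleen replicates 1 to 4. Spleen replicate 1 was again at 0 and skin replicate 4 again highest, but skin replicate 2 lay within the spleen range. The means were 145 ± 108 CPM across skin libraries and 33.2 ± 22.5 CPM across spleen libraries (SD, n = 4 each), with a log2 fold change of 2.12 ± 1.68 (SE), with an edgeR adjusted p of 0.898. Counts of 5830411N06Rik were 1.26 to 10.97 times those of Cd163l1 in the skin libraries and 1.26 to 2.13 times in the 3 spleen libraries with both. Because RSEM shares reads between similar genes, the split of counts between these relatives is uncertain.

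The genes whose levels followed 5830411N06Rik most closely over the 8 libraries, by Pearson correlation of log2 CPM among the genes tested, were Sec62 (r = 0.989), which encodes a subunit of the protein translocation machinery, the kinase Sgk1 (r = 0.982) and 5730403B10Rik (r = 0.979). Sgk1, a salt-sensing kinase known to favour interleukin 23 receptor expression in mouse T helper 17 cells, stood at 310, 150, 333 and 343 CPM in skin replicates 1 to 4, against 0, 69.2, 25.2 and 57.4 CPM in spleen replicates 1 to 4. These correlations describe 8 libraries that fall into 2 tissues and all contain the 0 or low value of spleen replicate 1.

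**Figure D3:**
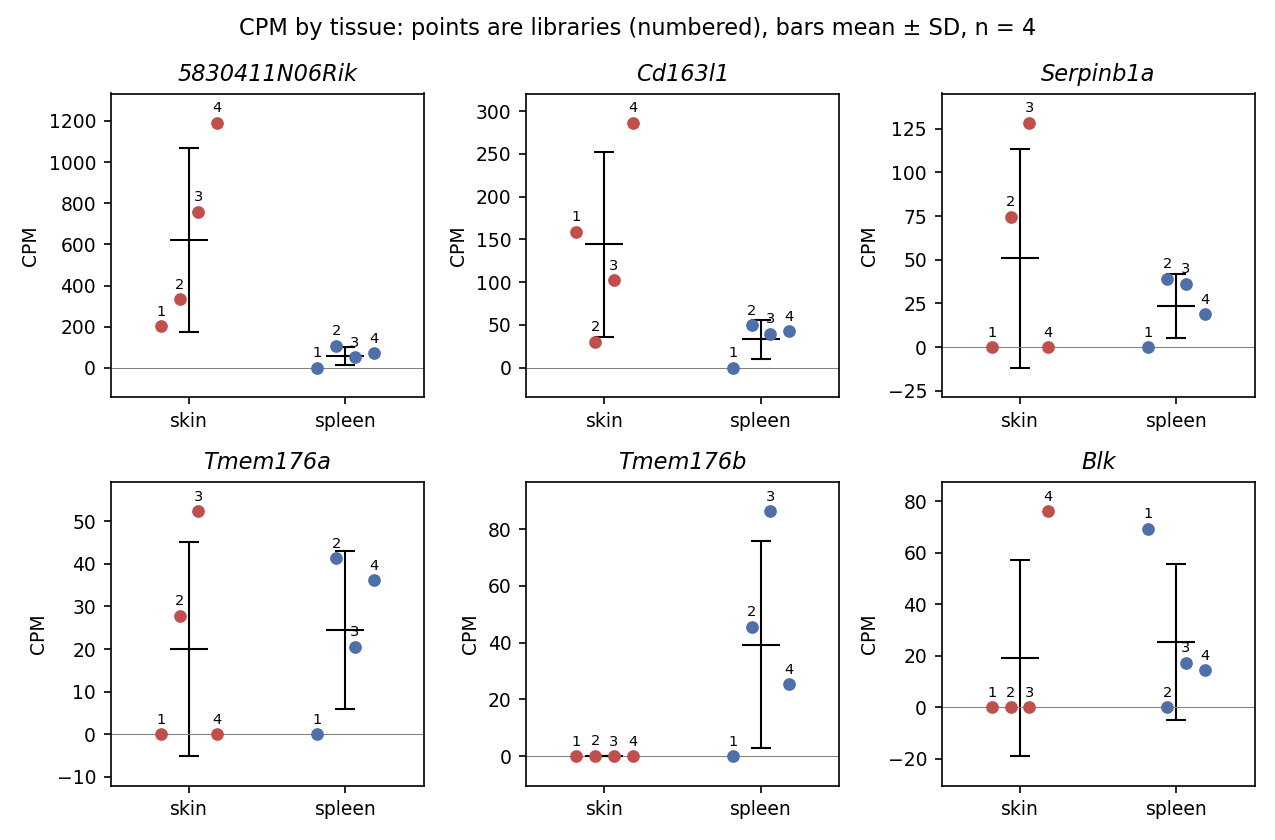
CPM in each library (points, numbered by replicate) with the mean ± SD of the 4 libraries (bars), skin left and spleen right, for 5830411N06Rik, Cd163l1, Serpinb1a, Tmem176a, Tmem176b and Blk. Skin values of 5830411N06Rik lie above all spleen values, while Serpinb1a and Tmem176a are above 0 in skin replicates 2 and 3 and spleen replicates 2, 3 and 4.

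Serpinb1a encodes an inhibitor of neutrophil serine proteases that interleukin 17 producing T cells also express. It stood at 0, 74.7, 128 and 0 CPM in skin replicates 1 to 4, against 0, 39.2, 36.2 and 18.7 CPM in spleen replicates 1 to 4. Where it was found it was higher in skin, but the tissues overlapped at 0. The means were 50.8 ± 62.6 CPM across skin libraries and 23.5 ± 18.1 CPM across spleen libraries (SD, n = 4 each), and the log2 fold change was 1.11 ± 2.65 (SE), with an edgeR adjusted p of 0.998. Its 95% interval, -4.90 to 7.12, covered large differences in both directions.

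Tmem176a encodes a cation channel of intracellular membranes that is abundant in type 17 lymphocytes and in dendritic cells. It stood at 0, 27.8, 52.3 and 0 CPM in skin replicates 1 to 4, against 0, 41.3, 20.5 and 36.1 CPM in spleen replicates 1 to 4. The tissues overlapped fully, with means of 20.04 ± 25.2 CPM across skin libraries and 24.5 ± 18.6 CPM across spleen libraries (SD, n = 4 each). The log2 fold change was -0.29 ± 2.54 (SE), with an edgeR adjusted p of 0.998.

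Tmem176b, its partner read from the shared stretch, was found in spleen but at most as 1 read in skin. It stood at 0, 0.11, 0 and 0 CPM in skin replicates 1 to 4, against 0, 45.5, 86.2 and 25.4 CPM in spleen replicates 1 to 4. In all, 1 read was counted in skin and 1176 in spleen. The ratio of spleen over skin was 1133, with a 95% interval of 203 to 44778 that covers counting error in pooled libraries only (exact binomial). Its partner was counted in skin replicates 2 and 3 while Tmem176b had 1 and 0 reads there, whereas in spleen replicates 2 to 4 the counts of Tmem176a were 0.908, 0.238 and 1.42 times those of Tmem176b. The gene did not pass the count filter with all 8 libraries. Without the filter, the gene had an edgeR adjusted p of 0.217. It passed the filter in 5 of the 8 fits that left out 1 library, with edgeR adjusted p between 0.0877 and 0.184, and was called in none. Tmem176a and Tmem176b are also genes of dendritic cells and macrophages. Markers of those cells summed to 68.9, 401, 223 and 276 CPM in skin replicates 1 to 4, against 429, 94.3, 62.3 and 151 CPM in spleen replicates 1 to 4. Neither gene was found in skin replicates 1 and 4 or in spleen replicate 1. In spleen replicate 1 the sum came from Cd74, H2-Ab1 and H2-Eb1 (195, 187 and 47.0 CPM), with Lyz2, Cd68 and Itgax at 0. In skin replicate 3, where Tmem176a was highest, it came from Cd74 and H2-Aa (180 and 42.6 CPM). The part of dendritic cells and macrophages in the levels of Tmem176a and Tmem176b was not tested.

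Serpinb1a and Tmem176a were found in the same 5 libraries and in no other. Among all 1285 genes with at least 3 counts in exactly 5 libraries, 43 (3.35%) had this pattern. Spleen replicate 1 had no count of Serpinb1a, Tmem176a, Tmem176b or 5830411N06Rik, and the genes of the set found there were Blk, Aqp3 and Il1r1.

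Blk encodes a Src family kinase of B cells that also acts in gamma delta T cells that make interleukin 17. It stood at 0, 0, 0 and 76.1 CPM in skin replicates 1 to 4, against 69.4, 0, 17.4 and 14.4 CPM in spleen replicates 1 to 4. The means were 19.0 ± 38.1 CPM across skin libraries and 25.3 ± 30.3 CPM across spleen libraries (SD, n = 4 each), with a log2 fold change of -0.41 ± 2.91 (SE), with an edgeR adjusted p of 0.998. The value in skin rests on replicate 4: without it all remaining skin libraries were at 0 and the fitted log2 fold change, which then depends on the prior count and is no bound, was -10.7 (edgeR adjusted p = 0.165). B cell markers were at 0 in skin replicate 4, as in the other skin libraries. In spleen replicates 1 to 4 they summed to 166, 66.7, 31.5 and 78.5 CPM. Their part in the spleen level was not tested.

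Aqp3 encodes a water and glycerol channel best known from keratinocytes. It had no count in any skin library, against 58.2, 0, 0 and 15.9 CPM in spleen replicates 1 to 4. The tissues overlapped at 0, and genes that averaged 10 to 20 CPM in the other 3 libraries were at 0 in 58.3% of skin values and 35.6% of spleen values. Keratinocyte markers summed to 841, 334, 953 and 181 CPM in skin replicates 1 to 4, with Dsp, Dsg3 and Trp63 at 0 there as well. The part of keratinocytes in the level of Aqp3 was not tested.

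Among the cytokine and receptor genes, Il17a, the cytokine that names the subset, had 0 CPM in all 4 skin libraries and 0, 0, 0 and 1.78 CPM in spleen replicates 1 to 4. The last value is 12 reads, and no other library had any. Il17f, its closest relative, had no count in any library. For genes that averaged above 0 and below 10 CPM in the other 3 libraries, 58.1% of skin values and 54.8% of spleen values were at 0. Il17a was at 0 throughout skin, so the skin share does not cover it. In edgeR without a filter Il17a was not called (adjusted p = 0.227). Its 0 in skin was thus not told apart from a low level like that in spleen.

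Il23r, the specific chain of the interleukin 23 receptor, stood at 0, 0, 48.4 and 0 CPM in skin replicates 1 to 4 and at 0 in all 4 spleen libraries. Of the 1532 genes with at least 3 counts in exactly 1 library, 155 (10.1%) had them in skin replicate 3, as Il23r did. That library was also highest among skin libraries for Serpinb1a and Tmem176a.

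Il1r1, the signalling receptor of interleukin 1, stood at 0.151, 0, 0 and 0 CPM in skin replicates 1 to 4, against 8.67, 0, 0 and 0 CPM in spleen replicates 1 to 4. The skin value is 1 read and the spleen value 89 reads, in 1 library each. Il17re, which pairs with IL-17RA to bind interleukin 17C, stood at 0, 0, 0 and 70.7 CPM in skin replicates 1 to 4, against 0, 149.97, 2.85 and 0 CPM in spleen replicates 1 to 4. Neither gene passed the count filter with all 8 libraries, and their tissues overlapped at 0. Without the filter, the edgeR adjusted p of Il1r1 was 0.331 and that of Il17re 0.941.

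**Figure D4:**
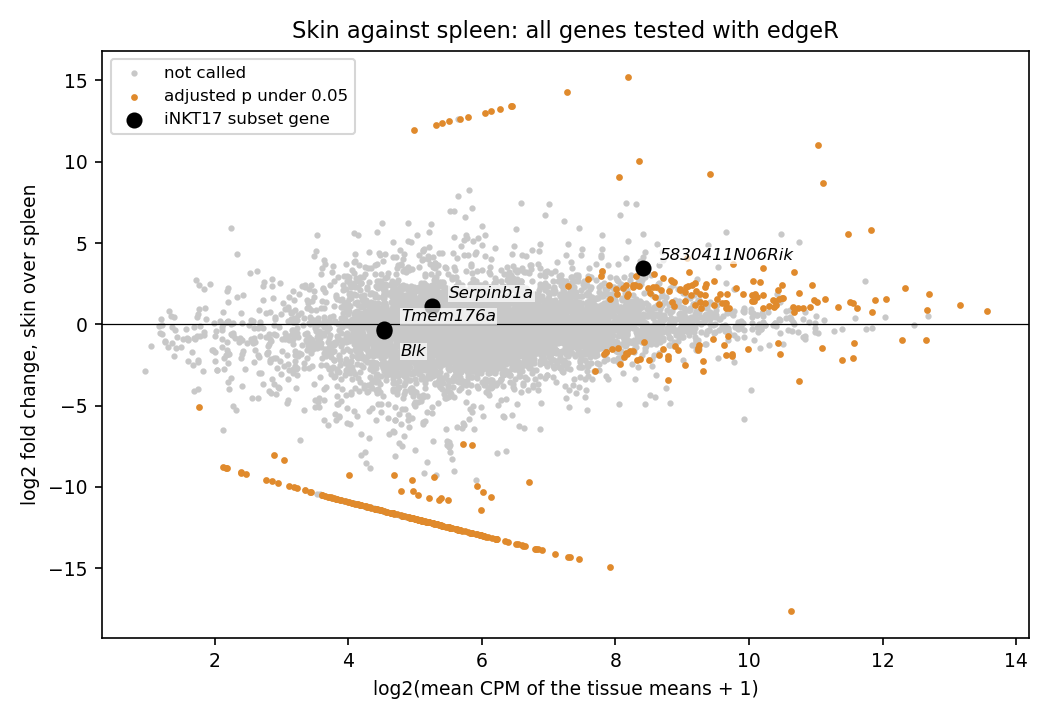
Fitted log2 fold change, skin over spleen (vertical axis), against mean level (horizontal axis, log2 of CPM + 1) for the 6920 genes tested, with called genes in orange and the 4 tested iNKT17 genes in black. 5830411N06Rik lies at 3.44 among higher genes without being called, and Serpinb1a, Tmem176a and Blk lie between 1.11 and -0.41.

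The wider type 17 pathway was described from lists of genes whose products act with those above. Calls in these lists stand beside 1.85% of all genes tested called higher in skin and 3.58% called lower. Of 9 genes of the interleukin 23 receptor pathway and related receptors, 7 were tested, 1 rose and 0 fell. The riser was Il21r, the receptor of interleukin 21, at 587 ± 270 CPM across skin libraries and 126 ± 22.8 CPM across spleen libraries (SD, n = 4 each; log2 fold change 2.22; edgeR adjusted p = 0.0352), and its call was lost in 7 of the 8 fits without 1 library. Il12rb1, the chain that pairs with IL-23R, stood at 0, 0, 85.5 and 118 CPM in skin replicates 1 to 4 and at 161.6, 97.1, 276 and 211 CPM in spleen replicates 1 to 4, and was not called. The kinase gene Jak2 stood at 124 ± 52.6 CPM across skin libraries and 400 ± 118 CPM across spleen libraries (edgeR adjusted p = 0.0609), and Stat3, which transmits interleukin 23 signals, at 604 ± 231 CPM across skin libraries and 193 ± 125 CPM across spleen libraries (edgeR adjusted p = 0.393).

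Of 15 genes of interleukin 1 family receptors and their signalling, 10 were tested and none was called by edgeR. Il1rap, the co-receptor of IL-1R1, had no count in skin and counts in 1 spleen library. The adaptor Myd88 stood at 351 ± 129 CPM across skin libraries and 95.3 ± 91.0 CPM across spleen libraries (SD, n = 4 each; edgeR adjusted p = 0.881). Of 10 interleukin 17 cytokines and receptors, 4 had any count, 3 were tested and none was called by edgeR. Il17ra, the shared receptor chain, was found in all 8 libraries, at 222 ± 160 CPM across skin libraries and 101 ± 71.0 CPM across spleen libraries (edgeR adjusted p = 0.873). Il17rc had under 1 CPM in 1 spleen library and no count in skin.

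Of 20 other effector and surface genes of type 17 cells, 11 were tested, 1 rose and 0 fell. The riser was Lgals3, which encodes galectin 3, at 787 ± 382 CPM across skin libraries and 118 ± 56.3 CPM across spleen libraries (SD, n = 4 each; log2 fold change 2.73; edgeR adjusted p = 0.0322), and its call was lost in 6 of the 8 fits without 1 library. Il22 was found in 1 library, skin replicate 4, at 55.9 CPM, and Il21 in 1, skin replicate 3, at 95.01 CPM. Ccr6 was found in 1, spleen replicate 4, at 8.77 CPM, the library that also held the Il17a reads. It was also the library for 704 (46.0%) of the 1532 genes with at least 3 counts in exactly 1 library. Sdc1, the syndecan used to mark iNKT17 cells, stood at 103, 0, 135 and 76.3 CPM in skin replicates 1 to 4 and at 0, 0, 0 and 15.0 CPM in spleen replicates 1 to 4, and was not called. Of the 10 not called, Itgae, Cd9 and Ramp1 had the smallest edgeR adjusted p (0.12, 0.259 and 0.352). Itgae stood at 631 ± 388 CPM across skin libraries and 3.79 ± 7.58 CPM across spleen libraries. Cd9 stood at 308 ± 104 CPM across skin libraries and 105 ± 73.7 CPM across spleen libraries. Ramp1 was lower in skin, at 45.3 ± 33.6 CPM across skin libraries and 415 ± 85.0 CPM across spleen libraries. Of 11 type 17 transcription factors, 8 were tested, and Rora, which encodes a nuclear receptor, rose (949 ± 172 CPM across skin libraries and 229 ± 72.8 CPM across spleen libraries; edgeR adjusted p = 0.00989), a call kept in all 8 fits without 1 library, while 0 fell.

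Relatives of single members gave no call with edgeR. Of 7 other Src family kinases 3 were tested, and Lck, the kinase of the T cell receptor, stood at 890 ± 448 CPM across skin libraries and 2036 ± 684 CPM across spleen libraries (SD, n = 4 each; edgeR adjusted p = 0.149). Of 9 other genes of the serpin B clade 3 were tested, with Serpinb9, an inhibitor of granzyme B, at 378 ± 166 CPM across skin libraries and 123 ± 77.9 CPM across spleen libraries (edgeR adjusted p = 0.186). Of 10 other aquaporins 3 had any count and 1, Aqp9, was tested, at 56.4 ± 66.4 CPM across skin libraries and 85.9 ± 54.9 CPM across spleen libraries. Beside the iNKT17 set, 0 of 14 iNKT1 genes rose and 2 fell, and 1 of 8 tested iNKT2 genes rose and 3 fell. Among the 6920 genes tested, 1.85% were called higher in skin and 3.58% lower. The iNKT1 genes that fell were Klrb1c, which encodes the NK1.1 receptor, at 0 in all skin libraries and 237 ± 152 CPM across spleen libraries (SD, n = 4; edgeR adjusted p = 0.0187), and the chemokine gene Ccl5, at 74.4 ± 55.2 CPM across skin libraries and 808 ± 140 CPM across spleen libraries (SD, n = 4 each; edgeR adjusted p = 0.0135). The iNKT2 gene that rose was Icos, a costimulatory receptor, at 3303 ± 486 CPM across skin libraries and 621 ± 81.8 CPM across spleen libraries (SD, n = 4 each; edgeR adjusted p = 0.000361). Those that fell, Folr4, Plac8 and Slamf6, were at 0 in all skin libraries and at 311 ± 109, 227 ± 39.6 and 194 ± 76.8 CPM across spleen libraries (SD, n = 4; edgeR adjusted p = 0.00373, 0.00953 and 0.0197). These 3 and Klrb1c were among 231 of the 6920 genes tested that were at 0 in all skin libraries. Without 1 library, 0 to 2 of the fallen iNKT1 calls and 1 to 3 of the fallen iNKT2 calls were made again. Whether the 3 subset lists differed from each other was not tested.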

How the data were processed

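RNA was extracted with a micro column kit, and libraries were made with SMART-Seq v4, which does not mark the strand, and sequenced as 75 bp pairs, per the labels' protocols. The deposited values are RSEM expected counts per gene, one column per library, not scaled for library size; the submitters' processing notes name RSEM, FastQC, DESeq2 1.16.1 and mm9 without role or order. The sources used here give neither aligner nor annotation. Of the values in a library, 12.3% to 19.4% were not whole.

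Expected counts were rounded. Genes were tested with edgeR 4.0.16 (R 4.3.3): filterByExpr, TMM, robust quasi-likelihood fit with tissue as the only term, Benjamini-Hochberg over all 6920 genes tested. The common dispersion was 2.94. CPM use TMM-scaled library sizes. The SE is the log2 fold change divided by the square root of F. Intervals of log2 fold changes come from this fit and cover the spread between libraries; the binomial interval and the floors cover counting error only, since reads carry no molecular identifiers. DESeq2 1.42.0 and limma 3.58.1 were alternatives. No libraries of a tissue agreed within sampling noise (chi-square per degree of freedom lowest value 112). Of 215 listed symbols 202 matched. Genes named were the 10 members, the called genes and up to 3 others of each list, and others with a remark; members and lists were chosen with earlier results of these data known. All 8 sample columns were used. Gene coordinates are printed for promoter windows only, from GRCm38.p6, a build other than that of the counts.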

Additional observations from a re-analysis of the deposited data

Results flagged for a closer look

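In 8 of the 20 groups of 4 values that the 10 genes give, 1 library stood apart from the other 3. Chance flags about 1 in 20 such groups in values that vary smoothly, and groups with 3 values at 0 are always flagged. In skin these were Il23r at 48.4 CPM in replicate 3, Il17re at 70.7 CPM and Blk at 76.1 CPM in replicate 4, Il1r1 at 0.151 CPM in replicate 1 and Tmem176b at 0.11 CPM in replicate 2, the last 2 of 1 read each. In spleen they were Il17re at 149.97 CPM in replicate 2, Il1r1 at 8.67 CPM in replicate 1 and Il17a at 1.78 CPM in replicate 4.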

How the results depend on the processing

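None of the 10 genes was called in any of the 17 alternative fits. The log2 fold change of 5830411N06Rik kept its direction, from 2.89 to 4.34. That of Serpinb1a reversed with limma-voom (-2.99) and with the replicate block (-0.18), that of Tmem176a ranged from -1.43 to 0.10 and that of Blk from -10.72 to 0.83 when 1 library was left out, and they were -3.82 and -4.91 with limma-voom and -1.08 and -6.46 with the replicate block; none of these was called, and the cause was not tested. Over all genes, 128 higher and 248 lower calls became 295 and 447 with DESeq2, 207 and 500 with limma-voom, and 36 and 14 with the replicate block; without a filter 48 were lower, and leaving out any 1 of the 8 libraries gave 47 to 102 higher and 17 to 111 lower. Same-numbered libraries did not deviate together (correlations 0.00175 to 0.0105). Values at 0 and the common dispersion of 2.94 could hide a shared animal, so these correlations do not decide whether the numbers are a pairing. The median log2 fold change of all genes tested shifted by -1.77 with limma-voom, -0.70 with the replicate block, -0.41 without a filter, -0.14 with library totals and no scaling factor, and by -0.20 to 0.06 when 1 library was left out. Limits for the set are the values at 0, 4 libraries per tissue and the common dispersion of 2.94.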
